A study of Mus musculus with 6 samples.

Results

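Messenger RNA levels of 9 genes of the p53 response and of apoptosis were described in mouse cerebellum. The 9 genes, taken as a named list, were Cdkn1a, Ccng1, Mdm2, Phlda3, Trp53inp1, Bbc3, Pmaip1, Bcl2l11 and Bax, and all 9 passed the filter on low counts that kept 16851 of the 46983 genes counted. RNA was sequenced from the whole cerebellum of 6 C57BL/6J mice at 60 days of age, 1 library a mouse. The 3 mice labelled Slc7a5-KO were Tie2-Cre Slc7a5 fl/fl, and the 3 labelled WT were Tie2-Cre Slc7a5 fl/+, so the WT mice also carried the recombinase and 1 floxed allele. Slc7a5 encodes LAT1, a carrier of large neutral amino acids, and the study concerns amino acid supply across the blood-brain barrier. Tie2-Cre acts in endothelial and blood-lineage cells, which are few in this tissue, so most of the RNA came from cells in which the gene was not targeted. In such mixed tissue, fewer cells of a type and less RNA per cell cannot be told apart.

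The transcription factor p53 is held low by MDM2, a ubiquitin ligase that is itself a p53 target. When p53 is stabilised it raises genes that halt the cell cycle, such as Cdkn1a, and genes that start cell death at the mitochondrion. There, BH3-only proteins such as PUMA (Bbc3), NOXA (Pmaip1) and BIM (Bcl2l11) neutralise anti-apoptotic Bcl-2 proteins or activate BAX, which opens the outer membrane. Several of these genes also answer to other factors, among them the amino acid and stress response factors ATF4 and CHOP and, for Bbc3 and Bcl2l11, FOXO proteins.

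Matches to short motifs of factors linked to these genes were looked for in the 250 bases before each RefSeq gene start (GRCm38.p6). Sites farther upstream or inside the genes were not searched. Starts were listed for 7 of the 9 genes, and genes with several starts had more bases searched. The p53 half-site, a motif of 10 letters, was searched as its consensus, which reads the same on both strands, and a full site was taken as 2 half-sites at most 13 bases apart. 4 of the 7 genes had a half-site, as did 8.2% of all 27025 genes in the table, and Cdkn1a had a full site, which was found for 18 genes (0.0666%). Capitals mark the half-sites in the stretches below, each printed 5′ to 3′ on the strand of its gene.
Cdkn1a (chr17:29090898-29090945, plus strand, full site from base -73 to base -42 of the upstream of 2 listed starts): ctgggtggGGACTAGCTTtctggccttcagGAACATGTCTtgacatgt
Mdm2 (chr10:117710927-117710952, minus strand, from base -186): tcggatagGAACTTGCCTagcgacca
Ccng1 (chr11:40755454-40755479, minus strand, from base -185): acctgcccGGGCAAGCCTtggcactg
Bax (chr7:45467082-45467107, minus strand, from base -201): catatcccAGGCAAGCTTtgaacttg

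The forkhead motif GTAAACA, bound by FOXO proteins, was searched on both strands and was found in 3 of the 7 genes, against 3.54% of all genes. It is shown for the 2 BH3-only genes that had it, with the motif or its reverse complement in capitals. Mdm2 was the other gene, with the motif from base -153. The ATF4 and CHOP composite motif TGATGNAAN, searched on both strands, was found in none of the 7 windows, against 3.89% of all genes. The forkhead and composite motifs were chosen with the values below known, and a match is a description of these letters, not of binding.
Bcl2l11 (chr2:128125803-128125825, plus strand, from base -227): acactaggGTAAACAcgccgggg
Bbc3 (chr7:16310086-16310108, plus strand, from base -167): ggcgggttTGTTTACaaacaatg

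The libraries held 13.4 to 31.1 M gene reads in Slc7a5-KO mice and 27.7 to 34.2 M in WT mice (M, mega), with Slc7a5-KO replicate 3 the shallowest. Levels below are CPM, counts per M reads after TMM scaling, and ± is SD over n = 3 mice a group. Slc7a5 itself had higher values in 2 of 3 libraries labelled Slc7a5-KO, at 164, 59.4 and 118 CPM in Slc7a5-KO and 72.0, 66.3 and 43.2 CPM in WT (log2 0.91 ± 0.42 SE, edgeR adjusted p = 0.84). With Slc7a5-KO replicate 2 left out, the lowest library of its group, it was higher at a log2 of 1.22 (edgeR adjusted p = 0.010). With any other library left out, the log2 was 0.55 to 1.06 and did not pass (edgeR adjusted p of 0.73 or more). With a sex term the log2 was 0.57 (edgeR adjusted p = 0.72). Which exons were floxed is not stated in the labels, and these counts were taken over all exons and all cells. The mean was not lower in libraries labelled Slc7a5-KO, and such counts cannot tell whether the gene was lost in the targeted cells. Slc7a5-KO and WT below mean the libraries labelled so. Markers of Purkinje cells, granule neurons, glia, microglia and endothelium were all detected. By Xist and Y-linked genes the Slc7a5-KO group held 2 females and 1 male, and the WT group 1 female and 2 males.

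None of the 9 genes passed an edgeR adjusted p of 0.05 between groups. In counts simulated with the same spread for every gene, few 2-fold changes passed it (13 of 67). That share need not hold for each of the 9. The 95% intervals, not adjusted for the number of genes, excluded a 2-fold change either way for Cdkn1a, Mdm2, Ccng1, Phlda3, Trp53inp1 and Bax. Those intervals ran at most from 0.611-fold (Trp53inp1) to 1.62-fold (Cdkn1a). The intervals of Bbc3, Bcl2l11 and Pmaip1 reached up to 2.41-fold, 2.20-fold and 5.81-fold. Over all genes tested, 8 passed, or 0.0475%, all of them higher in Slc7a5-KO. At an unadjusted p under 0.05 edgeR gave 1 of the 9, Bcl2l11, which was higher in Slc7a5-KO, where 6.22% of all genes stood under it and 3.45% stood under it and were higher. With a sex term in the edgeR fit Bcl2l11 had a log2 of 0.58 at an unadjusted p of 0.0581 (adjusted p = 0.61). Ccng1 was then the 1 gene of the 9 under 0.05, lower in Slc7a5-KO, with a log2 of -0.40 beside -0.23 without the term (unadjusted p = 0.00654, adjusted p = 0.39). The share of all genes under 0.05 in the fit with the sex term is not given here. DESeq2 gave an adjusted p for 8 of the 9 and called 0, against 0.339% of all genes, and limma-voom called 0, against 0.0356%. The authors' deposited table listed 0 of the 9 at an adjusted p under 0.05, against 0.9% of all genes. The median log2 fold change of the 9, Slc7a5-KO over WT, was 0.05, beside 0.0022 over all genes, with 5 above 0 and 4 below. Groups did not overlap for 1 of the 9, again Bcl2l11, which is 11.1% of the list beside 11.5% of all genes, a share near the background (5.93% of all genes separated with Slc7a5-KO higher).

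**Figure D1:**
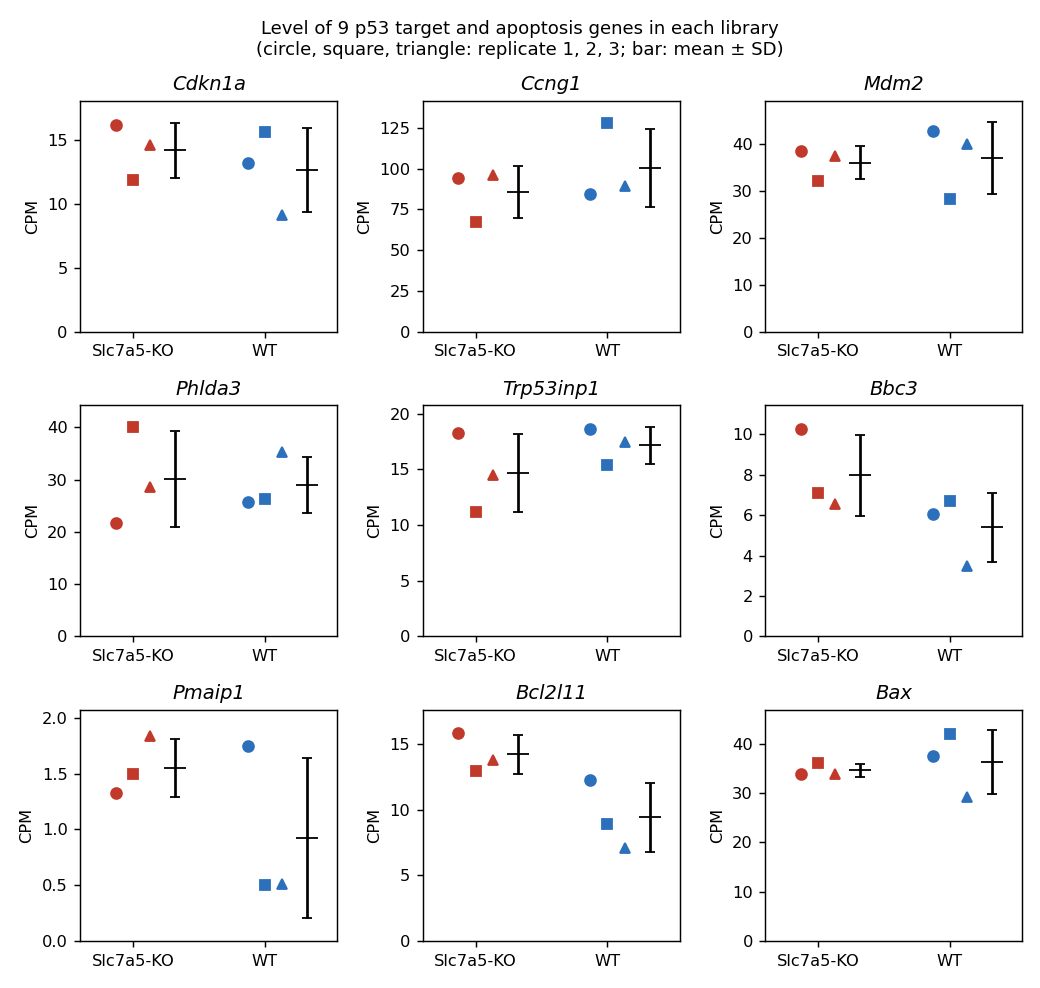
CPM of each gene (y axis, from 0) in the 3 Slc7a5-KO libraries (red, left) and the 3 WT libraries (blue, right) with the mean ± SD in black; circles, squares and triangles are replicates 1, 2 and 3. Bcl2l11 is the one gene whose groups do not overlap, with Slc7a5-KO libraries from 12.97 to 15.9 CPM and WT libraries from 7.10 to 12.2 CPM.

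The 5 cell cycle and feedback targets of p53 had log2 fold changes of -0.23 to 0.17, and none passed the threshold. Their groups overlapped, and their intervals leave room for differences in either direction. Cdkn1a, which encodes the cyclin-dependent kinase inhibitor p21 (chr17:29090976-29100727, plus strand), had 16.1, 11.9 and 14.6 CPM in Slc7a5-KO and 13.2, 15.6 and 9.13 CPM in WT. The highest value was in Slc7a5-KO replicate 1 and the lowest in WT replicate 3, and the groups overlapped. Its log2 fold change was 0.17 ± 0.25 SE (edgeR adjusted p = 0.97), with a 95% interval of -0.36 to 0.70, and it was -0.02 without WT replicate 3. Cdkn1a is the gene most used as a readout of p53 activity, and its interval reached up to a 1.62-fold higher and down to a 0.778-fold level.

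Mdm2, the negative regulator of p53 (chr10:117688875-117710758, minus strand), had 38.5, 32.1 and 37.4 CPM in Slc7a5-KO and 42.8, 28.3 and 39.9 CPM in WT. All 3 Slc7a5-KO values lay inside the WT range. Its log2 fold change was -0.04 ± 0.18 SE (edgeR adjusted p = 0.995), with an interval of -0.42 to 0.34, and it took the other sign, between 0.01 and 0.08, in 4 of 14 alternatives.

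Ccng1, which encodes cyclin G1, a partner in the MDM2 feedback loop (chr11:40748552-40755311, minus strand), was the most abundant of the 9, also per length as counted. It had 94.1, 67.2 and 95.9 CPM in Slc7a5-KO and 84.2, 128 and 89.3 CPM in WT. The lowest library was Slc7a5-KO replicate 2 and the highest WT replicate 2, and the other 4 lay close together, so the groups overlapped. The difference on the log2 scale was -0.23 ± 0.17 SE (edgeR adjusted p = 0.93), with -0.02 when WT replicate 2 and -0.09 when Slc7a5-KO replicate 2 was left out.

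Phlda3, a pleckstrin homology protein that restrains Akt (chr1:135766119-135769136, plus strand), had 21.7, 39.99 and 28.5 CPM in Slc7a5-KO and 25.7, 26.2 and 35.2 CPM in WT. Both the lowest and the highest value were in Slc7a5-KO libraries. The log2 fold change was 0.05 ± 0.22 SE (edgeR adjusted p = 0.99), and the value was -0.22 when Slc7a5-KO replicate 2 was left out.

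Trp53inp1, a stress protein that takes part in p53 activation and in autophagy (chr4:11156431-11174379, plus strand), had 18.2, 11.2 and 14.5 CPM in Slc7a5-KO and 18.7, 15.4 and 17.5 CPM in WT. Replicates 2 and 3 of Slc7a5-KO lay below every WT library, and replicate 1 lay within the WT range. The log2 fold change was -0.23 ± 0.23 SE (edgeR adjusted p = 0.96), with values of -0.07 when Slc7a5-KO replicate 2 and -0.42 when Slc7a5-KO replicate 1 was left out.

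The 3 BH3-only genes had the highest fold changes of the 9, though none passed the threshold. Bcl2l11, which encodes BIM (chr2:128126038-128162547, plus strand), had 15.9, 12.97 and 13.8 CPM in Slc7a5-KO and 12.2, 8.92 and 7.10 CPM in WT. Every Slc7a5-KO library lay above every WT library, the smallest gap being between Slc7a5-KO replicate 2 and WT replicate 1. The means were 14.2 ± 1.48 CPM in Slc7a5-KO and 9.42 ± 2.60 CPM in WT. On the log2 scale the difference was 0.59 ± 0.26 SE, with an edgeR adjusted p of 0.76 (0.0345 before adjustment). The 95% interval was 0.05 to 1.14, or 1.034-fold to 2.20-fold. Leaving out 1 library moved the log2 value from 0.42 without WT replicate 3 to 0.83 without WT replicate 1, and the adjusted p stayed at 0.515 or above in all 14 alternatives. The authors' deposited table gave an unshrunken log2 value of 0.59 and an adjusted p of 0.275.

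Bbc3, which encodes PUMA (chr7:16308393-16318205, plus strand), had 10.2, 7.10 and 6.54 CPM in Slc7a5-KO and 6.05, 6.68 and 3.48 CPM in WT. Slc7a5-KO replicate 3 lay just under WT replicate 2, which is the one overlap between the groups. The means were 7.96 ± 2.00 CPM in Slc7a5-KO and 5.40 ± 1.70 CPM in WT (log2 0.56 ± 0.34 SE, edgeR adjusted p = 0.86), with an interval of -0.14 to 1.27. The log2 value was 0.34 with Slc7a5-KO replicate 1 left out and 0.33 with WT replicate 3 left out, the libraries with the highest and the lowest level.

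Pmaip1, which encodes NOXA (chr18:66458533-66465565, plus strand), was the least abundant, also per length, with 14 to 62 reads a library. It had 1.33, 1.50 and 1.84 CPM in Slc7a5-KO and 1.75, 0.505 and 0.507 CPM in WT. WT replicate 1 stood at the level of the Slc7a5-KO libraries and the other 2 WT libraries stood well below it. Its log2 fold change was 0.74 ± 0.86 SE (edgeR adjusted p = 0.96), it was 1.61 without WT replicate 1 and 0.45 without WT replicate 3, and the interval ran from -1.06 to 2.54. At these counts the interval held both a 2-fold higher and a 2-fold lower level.

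Bax, the pore-forming member and the effector of the pathway (chr7:45461697-45466898, minus strand), had 33.8, 36.2 and 33.8 CPM in Slc7a5-KO and 37.5, 42.0 and 29.2 CPM in WT. All 3 Slc7a5-KO values lay inside the WT range. On the log2 scale it differed by -0.07 ± 0.17 SE (edgeR adjusted p = 0.99), with an interval of -0.43 to 0.29, and it was 0.06 without WT replicate 2. The GENCODE annotation places another gene of the same strand, Gm45808, over 915 bases of Bax, so reads there are uncertain.

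**Figure D2:**
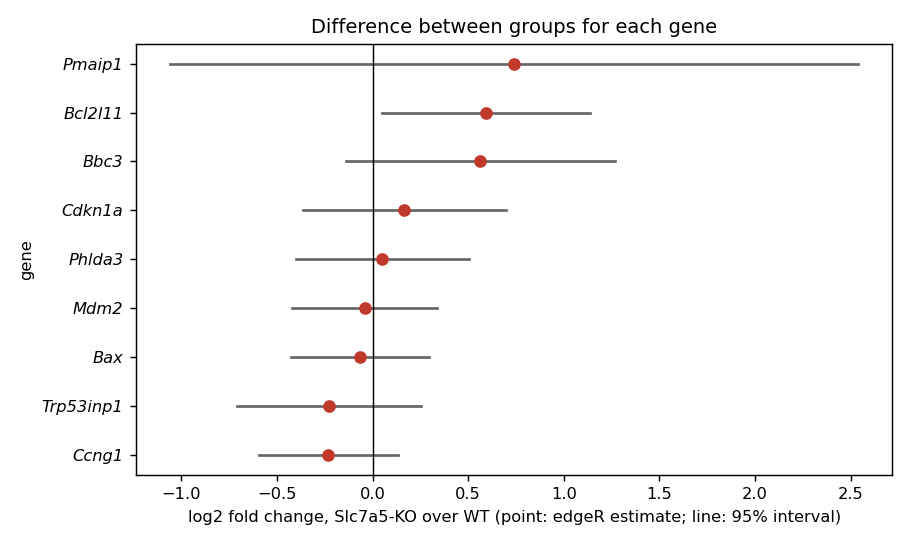
Log2 fold change of each gene, Slc7a5-KO over WT (x axis), with the edgeR estimate as a point and its 95% interval as a line. The interval of Bcl2l11 runs from 0.05 to 1.14, the other 8 intervals include 0, and that of Pmaip1 is the widest.

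**Figure D3:**
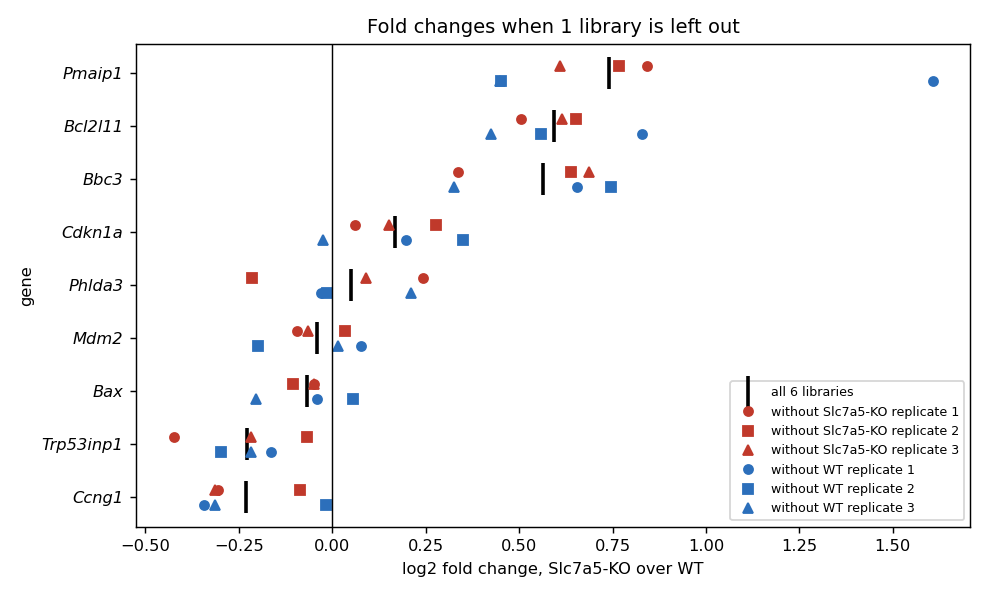
The same log2 fold change (x axis) with all 6 libraries (black bar) and with each library left out in turn (red, a Slc7a5-KO library left out; blue, a WT library left out). Bbc3, Bcl2l11 and Pmaip1 stay above 0, Ccng1 and Trp53inp1 below it, and Cdkn1a, Phlda3, Mdm2 and Bax lie on both sides of it.

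Per length of exon, 3 of the 9 genes stood above the other 6 in every library. FPKM here is CPM per kilobase of merged exons, averaged over the 6 libraries with their SD. Ccng1 had 26.5 ± 5.69 FPKM, Bax 22.5 ± 2.72 and Phlda3 19.0 ± 4.35, and their ranges over libraries overlapped one another. They stood at percentiles 90.6, 88.7 and 86.3 of all tested genes. The Bax value is uncertain because of the 915 bases under Gm45808, so its rank against Ccng1 is not settled. Mdm2 followed at 7.18 ± 1.05 FPKM, with no library in the range of Phlda3 above it or of Cdkn1a below it. Cdkn1a (3.78 ± 0.74), Bbc3 (3.15 ± 1.02) and Trp53inp1 (2.46 ± 0.44) had overlapping ranges, near the median of all tested genes of 3.74 FPKM. Bcl2l11 had 1.47 ± 0.40 FPKM and overlapped Trp53inp1 in range. Pmaip1 was lowest, at 0.45 ± 0.22 FPKM and percentile 14.4, below every library of Bcl2l11.

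Among the other Bcl-2 family genes none passed, and Bid and Bcl2 had the lowest p-values by edgeR. Bcl2l12 had a log2 of 1.04 ± 0.85 SE (edgeR adjusted p = 0.93), with groups that did not overlap, at only 17 to 54 reads a library. Bid, a BH3-only protein cleaved by caspase-8, had 9.26, 14.3 and 17.8 CPM in Slc7a5-KO and 5.79, 6.89 and 6.26 CPM in WT. Every Slc7a5-KO library lay above every WT library, and the spread was wider in Slc7a5-KO (log2 1.12 ± 0.29 SE, edgeR adjusted p = 0.29). Its adjusted p ran from 0.0557 to 1 over the 14 alternatives. Bcl2, the founding anti-apoptotic gene, had 26.6, 19.2 and 27.3 CPM in Slc7a5-KO and 15.8, 12.4 and 19.6 CPM in WT. Slc7a5-KO replicate 2 lay just under WT replicate 3, so the groups overlapped (log2 0.61 ± 0.22 SE, edgeR adjusted p = 0.67).

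Bnip3l, a mitophagy receptor with a BH3-like region, went the other way, at 64.5, 64.4 and 47.6 CPM in Slc7a5-KO and 68.9, 81.3 and 86.3 CPM in WT (log2 -0.42 ± 0.15 SE, edgeR adjusted p = 0.67). Bcl2l2, which encodes anti-apoptotic BCL-W, had -0.16 ± 0.16 SE (edgeR adjusted p = 0.96). Of 8 anti-apoptotic genes 4 were tested, with 2 above 0, 2 below, a median log2 of -0.02 and 1 higher gene at an unadjusted p under 0.05 by edgeR. Of 12 further pro-apoptotic genes 10 were tested, with 5 above 0, 5 below, a median log2 of -0.0018 and 1 gene in each direction at that p.

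The ratio of Bax to Bcl2, often read as the balance of the family, had a lower mean in Slc7a5-KO, with groups that overlapped. The log2 ratio of their CPM was 0.34, 0.91 and 0.31 in Slc7a5-KO and 1.25, 1.75 and 0.57 in WT. WT replicate 3 lay between Slc7a5-KO libraries, so the groups overlapped. The difference was -0.67, from means of 0.52 ± 0.34 in Slc7a5-KO and 1.19 ± 0.59 in WT (2-sided exact permutation p = 0.2, where 0.1 is the smallest possible). Bax itself differed little, so the difference lay in Bcl2, whose own test is given above.

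**Figure D4:**
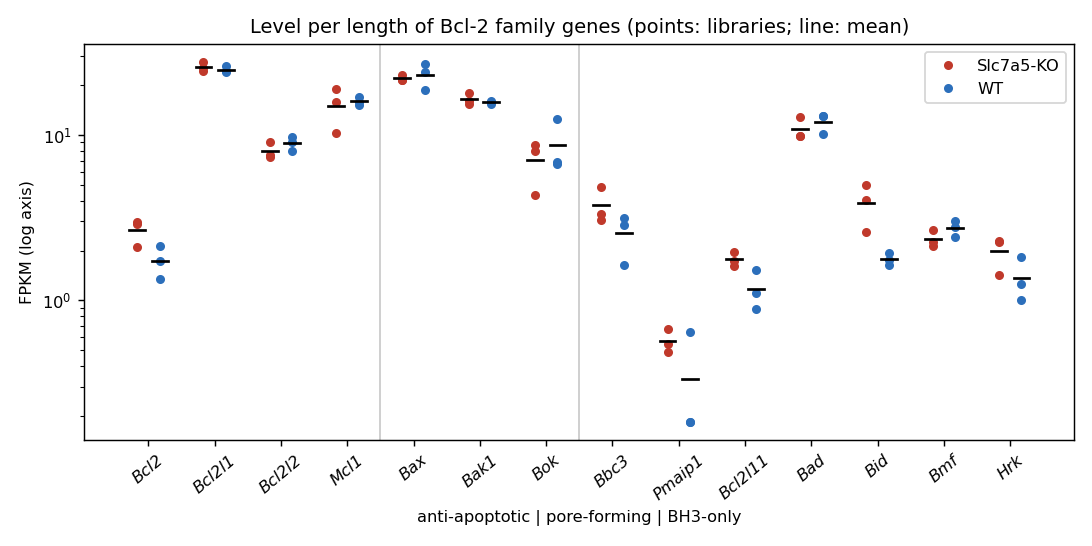
FPKM (log axis) of 14 Bcl-2 family genes in each Slc7a5-KO (red, left) and WT (blue, right) library, with group means as black lines and the anti-apoptotic, pore-forming and BH3-only genes from left to right. Bcl2, Bbc3, Pmaip1, Bcl2l11, Bid and Hrk have higher means in Slc7a5-KO. Bcl2l2, Mcl1, Bok, Bad and Bmf have lower ones, and Bax, Bak1 and Bcl2l1 have nearly equal ones.

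Other targets and regulators of p53 showed no shared direction. Of 40 further targets 39 were tested and 0 passed the edgeR adjusted p (1 higher and 2 lower at an unadjusted p under 0.05), with 19 above 0, 20 below and a median log2 of -0.01. DESeq2 and limma-voom also called 0 in this list and in each of the other lists given above or below with 0 genes past the threshold. The pair with the smallest p were both sestrins, stress proteins that restrain mTORC1. Sesn2 had 41.8, 45.0 and 36.8 CPM in Slc7a5-KO and 29.7, 31.2 and 24.0 CPM in WT (log2 0.54 ± 0.17 SE, edgeR adjusted p = 0.58). Sesn1 had 39.5, 40.7 and 37.9 CPM in Slc7a5-KO and 51.3, 58.1 and 50.3 CPM in WT (log2 -0.44 ± 0.15 SE, edgeR adjusted p = 0.61). Both separated the groups, in opposite directions. Sesn2 is known as a target of ATF4 as well as of p53.

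Of 26 regulators of p53, 0 passed by edgeR (0 higher and 1 lower at an unadjusted p under 0.05), with 11 above 0 and 15 below. Chek2, a DNA damage kinase that phosphorylates p53, was low throughout, at 0.681, 1.94 and 0.588 CPM in Slc7a5-KO and 4.18, 2.89 and 3.37 CPM in WT (log2 -1.68 ± 0.59 SE, edgeR adjusted p = 0.63). Every Slc7a5-KO library lay below every WT library, and without Slc7a5-KO replicate 2 the log2 value was -2.44. Ube3a, a ubiquitin ligase, had -0.31 ± 0.16 SE (edgeR adjusted p = 0.82).

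Genes that carry out apoptosis did not pass in either direction. Of 22 caspase and apoptosome genes 21 were tested and 0 passed by edgeR (0 higher and 1 lower at an unadjusted p under 0.05), with 9 above 0, 12 below and a median log2 of -0.02. The smallest p were those of 2 caspase-restraining ubiquitin ligases, both lower in Slc7a5-KO without passing. Xiap had 117, 90.0 and 112 CPM in Slc7a5-KO and 115, 133 and 162 CPM in WT (log2 -0.36 ± 0.15 SE, edgeR adjusted p = 0.75). Birc2 had 33.6, 29.5 and 29.5 CPM in Slc7a5-KO and 36.4, 41.2 and 37.04 CPM in WT (log2 -0.31 ± 0.16 SE, edgeR adjusted p = 0.83). Xiap overlapped between groups through WT replicate 1, and Birc2 did not overlap.

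Death receptors and their adaptors had 0 of 14 tested genes past the threshold by edgeR, also at an unadjusted p under 0.05, with 7 above 0 and a median log2 of 0.01. Cradd, an adaptor of caspase-2, had 0.30 ± 0.22 SE and Fadd, the adaptor of caspase-8, had 0.52 ± 0.39 SE, both with an edgeR adjusted p of 0.92 or more. Among 24 tested cyclins and cell cycle genes 0 passed by edgeR (1 higher and 0 lower at an unadjusted p under 0.05), and the median log2 was 0.13. Gadd45b, a stress-induced growth arrest gene, had 10.8, 11.96 and 9.04 CPM in Slc7a5-KO and 5.79, 7.90 and 6.95 CPM in WT (log2 0.63 ± 0.28 SE, edgeR adjusted p = 0.76). Cdkn2d, an inhibitor of CDK4 and CDK6, had 0.30 ± 0.17 SE (edgeR adjusted p = 0.85).

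The stress arm of ATF4 and CHOP was the one list with genes past the threshold. Of its 16 genes 2 rose, 0 fell and 14 were above 0, and the median log2 was 0.56 beside 0.0022 over all genes. At an unadjusted p under 0.05 by edgeR 8 were higher and 0 lower, where 3.45% of all genes were higher. The list was written with a rise of ATF4 targets in these libraries known, so its direction is not independent evidence. Atf5, a transcription factor of that response, rose to 91.1, 61.9 and 71.8 CPM in mice labelled Slc7a5-KO, against 25.2, 24.5 and 19.5 CPM in WT (log2 1.70 ± 0.17 SE, edgeR adjusted p = 0.00017). Chac1, which degrades glutathione and is linked to cell death, rose to 34.3, 45.8 and 34.0 CPM in mice labelled Slc7a5-KO, against 13.98, 16.9 and 13.04 CPM in WT (log2 1.38 ± 0.20 SE, edgeR adjusted p = 0.0055). Chac1 missed the threshold without WT replicate 3 (edgeR adjusted p = 0.068) and Atf5 passed in all 14 alternatives.

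**Figure D5:**
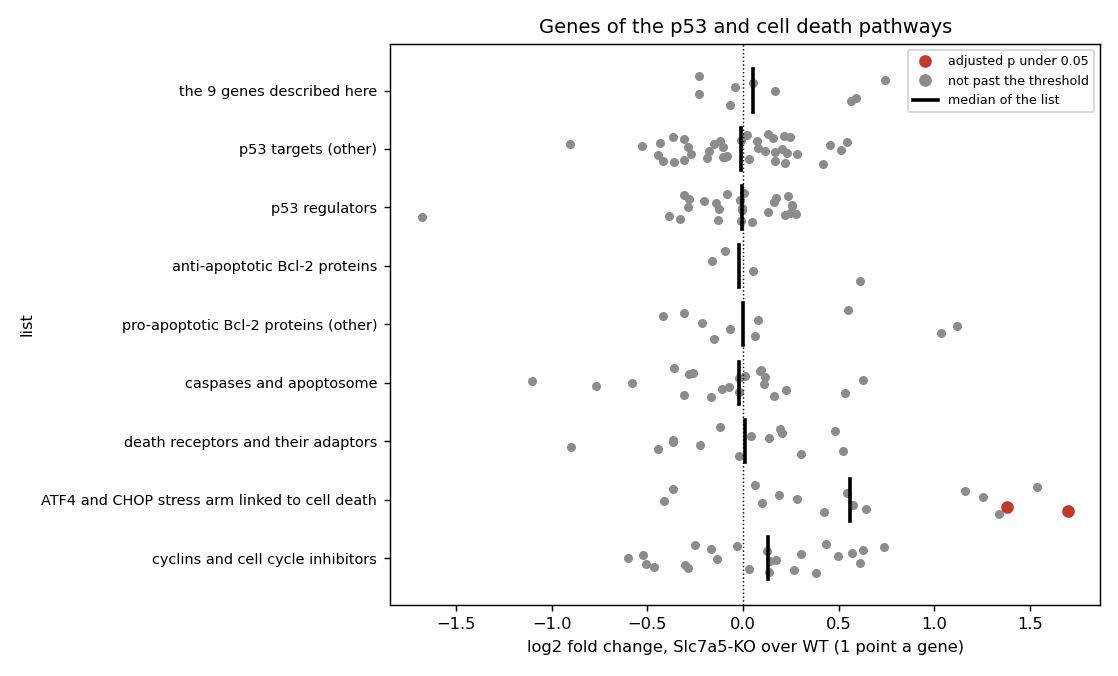
Log2 fold change, Slc7a5-KO over WT (x axis), of every tested gene in 9 lists (rows), with genes past the adjusted p threshold in red, the others in grey and each list's median as a black bar. The 2 red points, Atf5 and Chac1, are in the ATF4 and CHOP list, whose median is 0.56, and the median of the 9 genes is 0.05.

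Cell type markers moved in several directions beside these values, with 5 markers a list. Summed Purkinje cell markers ran from 2934 to 4582 CPM in Slc7a5-KO and from 4233 to 5236 CPM in WT, and all 5 had a fold change below 0. Summed choroid plexus markers ran from 29.8 to 4732 CPM in Slc7a5-KO and from 2478 to 5562 CPM in WT, also with all 5 below 0. Microglia markers summed to 118 to 149 CPM in Slc7a5-KO and 94.8 to 121 CPM in WT, with 4 of 5 above 0. Endothelial markers summed to 339.9 to 414.1 CPM in Slc7a5-KO and 391.5 to 416 CPM in WT, with 3 of 5 above 0. Above 0 were 1 of 5 granule neuron, 2 of 5 astrocyte and Bergmann glia, and 4 of 5 oligodendrocyte markers. No marker was at 0 in all libraries and none of the 35 passed the threshold, and the part of cell composition in the values of the 9 genes was not tested.

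Sex, read from the data, was unequal between the groups, so values within each sex are given beside the pooled ones. As differences in mean log2 CPM, Slc7a5-KO minus WT, Bcl2l11 had 0.73 in females and 0.47 in males, which the lack of overlap between the groups fixed to be above 0. Bbc3 had 0.29 in females and 0.62 in males. Ccng1 had -0.43 in females and -0.37 in males. The sign turned between the sexes for 5 of the 9. Mdm2 had 0.42 in females and -0.37 in males, Trp53inp1 0.08 and -0.68, Bax -0.31 and 0.13, Phlda3 -0.07 and 0.41, and Cdkn1a -0.03 and 0.12, in the same order. In the edgeR test of the difference between the sexes, added after the data were seen, Mdm2 had an unadjusted p of 0.0274 and an adjusted p of 0.56, and the other 4 had unadjusted p-values of 0.103 to 0.821. None of the 9 genes passed the interaction test at an edgeR adjusted p of 0.05, where 39 of 16851 genes did, and the Slc7a5-KO males and the WT females were 1 mouse each.

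The 3 genes whose log2 CPM followed Bcl2l11 most closely over the 6 libraries were Apbb2, Saraf and Zfp109, each with a Pearson correlation of 0.99. All points come from the same 6 libraries, and 41 of 14693 genes compared had a correlation over 0.95, so these names describe the pattern only.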

How the data were processed

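The deposited counts are raw reads per gene, 1 table a mouse. Per the submitters' processing notes, STAR 2.5.4 and GRCm38 (mm10) were used, and the annotation release was not stated. Per the labels' protocols, the SENSE mRNA-Seq V2 kit was used, and the reverse-strand count, with 94.8% to 95.8% of stranded reads, was taken. Reads of no single gene (19.5% to 22.2%) were left out, and multimapping reads are listed as 0. Symbols were matched for 46488 of 46983 identifiers, and exon lengths and coordinates come from GENCODE M21. The authors' deposited table, made with DESeq2 1.10.1 in R 3.2.4 per the submitters' processing notes, gives a mean normalised signal, log2 fold changes, a Wald score and p-values.

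Genes were filtered with filterByExpr (minimum count 10, total 15), scaled by TMM and compared by the quasi-likelihood test of edgeR 4.0.16 (2-sided, robust; R 4.3.3), and p-values were adjusted by Benjamini-Hochberg over 16851 genes. Log2 CPM used a prior count of 2. The script was tested on simulated counts with the same spread for every gene. It called 0 of 67 genes changed 1.5-fold, 13 of 67 changed 2-fold and 59 of 66 changed 4-fold. Changes of 1.5-fold were missed there, so a gene that did not pass here may still differ. DESeq2 1.42.0 and limma 3.58.1 (voom) were alternatives. The members and lists were chosen with earlier results of these data known. Named were the 9 genes, Slc7a5 and, from each of 8 lists, up to 5 genes past the threshold or else the 2 with the smallest p. For the member with the smallest p, the 3 most correlated genes were named.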

Additional observations from a re-analysis of the deposited data

How the results depend on the processing

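Under all 14 alternatives the number of the 9 genes called stayed at 0 and their median log2 fold change lay between 0.01 and 0.09. The count over all genes, 8 in the main comparison, was 46 by DESeq2, 71 with no filter on low counts and 16 with a sex term, and leaving out 1 library gave 3 (WT replicate 3) to 20 (Slc7a5-KO replicate 1, and likewise 2), with 5 for WT replicate 1 and for Slc7a5-KO replicate 3. The ATF4 and CHOP list, with 2 genes called in the main comparison, had 1 (without WT replicate 3) to 3 (without Slc7a5-KO replicate 2) when 1 library was left out, and 3 by DESeq2 and with no filter. The cause of these shifts was not tested.

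Signs turned for 4 genes that had values near 0 and were never called. Mdm2 had a log2 value of 0.026 with a sex term. With 1 library left out, Mdm2 spanned -0.198 to 0.077, Bax -0.204 to 0.055, Cdkn1a -0.024 to 0.35 and Phlda3 -0.216 to 0.243, and the Bax to Bcl2 difference spanned -0.98 to -0.39.

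With a replicate block edgeR called 6 genes and 0 of the 9, with Bcl2l11 at 0.62 and Bbc3 at 0.58. Deviations of same-numbered libraries correlated at -0.059 to -0.027, and 0 of 3 Slc7a5-KO libraries correlated best with their own number, so the numbers were not taken as pairs. Depth limits Pmaip1 most, at 14 to 62 reads a library.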

Other observations

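The Bcl-2 family was grouped by role after its values were seen. Of 7 tested BH3-only genes, 5 had a log2 fold change above 0, Slc7a5-KO over WT, with a median of 0.56, and 0 passed the threshold. The 3 among the 9 genes had a median of 0.59, and the 4 others, Bad, Bid, Bmf and Hrk, had a median of 0.20, with Hrk at 0.55 ± 0.30 SE, Bad at -0.15 ± 0.19 SE and Bmf at -0.22 ± 0.23 SE. The 3 pore-forming genes had a median of -0.07 and a range of -0.31 to 0.06, which overlapped the BH3-only range of -0.22 to 1.12, and the 5 cell cycle and feedback targets of p53 a median of -0.04. These are descriptions of a grouping chosen with the values known, and no test was made of it.

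Nupr1, a stress-induced chromatin protein downstream of ATF4 and named here with its values already known, averaged 18.4 ± 6.34 CPM in Slc7a5-KO and 7.68 ± 1.93 CPM in WT (log2 1.25 ± 0.29 SE, edgeR adjusted p = 0.21), and did not pass.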
